A study of Mus musculus with 16 samples.

Results

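The heparan sulphate synthesis and editing enzymes were followed across 3 fibroblast growth factor (FGF) treatments of cultured mouse germ cells. The set has 10 genes, Ext1, Ext2, Extl3, Ndst1, Ndst2, Hs2st1, Hs6st1, Hs6st2, Sulf1 and Sulf2, out of 54432 genes in the deposited table. Their rows were found by symbol, 1 row each, with no threshold on a measured value, and the set was chosen with earlier results of these data known. All 10 passed the filter on low values, a mean of at least 10 normalized counts over all libraries, which 17755 genes passed.

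The cells were THY-1+ germ cell cultures, enriched for spermatogonial stem cells, set up from testes of C57 LacZ male pups aged 5 to 8 days. STO cells, a fibroblast line from mouse, served as feeders. Between passages 9 and 12 the cultures had been kept with FGF2 (1 ng/mL), GDNF (20 ng/mL) and GFRα1 (150 ng/mL). For RNA-seq they were grown for 7 days with FGF9 at 1 ng/mL (low-dose FGF9), FGF9 at 20 ng/mL (high-dose FGF9), FGF2 at 1 ng/mL (FGF2) or without FGF, in the vehicle bovine serum albumin alone (the control), and were then detached from the feeder layer before RNA was extracted. GDNF and GFRα1 were present in all 4 groups, so the control lacked FGF but not GDNF signalling. The labels list 4 cultures per group, 16 in all, whereas the title of the table names 12 samples, and 3 libraries per group were therefore assumed.

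Heparan sulphate is a long sugar chain carried by proteins on the cell surface and in the matrix. Its chain is polymerised in the Golgi by exostosins, then trimmed and sulphated by N-deacetylase/N-sulphotransferases and O-sulphotransferases, and its 6-O-sulphate groups can be taken off again outside the cell by the sulphatases SULF1 and SULF2. FGFs bind sulphated chains, which act as a co-receptor that helps an FGF to pair with its receptor, and in many cell types 2-O- and 6-O-sulphation favours this complex while SULF activity weakens it. Heparan sulphate also binds GDNF.

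The table gives no value for a single library. For each gene it holds 1 mean normalized count taken across the libraries, and a log2 fold change with its standard error for each treatment against control. Group means were derived from these. The spread between libraries was read back from the standard errors as a coefficient of variation (CV), the same for all groups of a gene. It is the square root of the DESeq2 dispersion that the standard errors imply, a model value that leaves out counting noise. Reads from feeder cells and from germ cells cannot be told apart in bulk samples, nor can fewer cells of a type be told apart from less RNA per cell. Germ cell markers were abundant, with means over all libraries of 47959 normalized counts for Dazl and 11536 for Ddx4, both germ cell genes. Of 24 fibroblast markers 20 were tested, and their summed level was 21767 normalized counts with low-dose FGF9, 26487 with high-dose FGF9, 21187 with FGF2 and 20054 in controls.

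None of the 10 enzymes passed an adjusted p of 0.05 in any of the 6 comparisons made, 3 against control and 3 between treatments. Against control, 0.0789% of all genes tested passed with low-dose FGF9, 2.75% with high-dose FGF9 and 0.146% with FGF2, so that a count of 0 among 10 genes is close to the background in each. What the table does give is how far each enzyme could have moved. With high-dose FGF9 against control the 95% intervals of all 10 folds lay within 2-fold in either direction. Those of 9 lay within 1.5-fold and those of 6 within 1.25-fold. Of all genes tested, 74.9%, 57.8% and 34.0% kept these widths. They include genes down to a mean of 10, and low counts widen an interval. No share was taken over genes of like mean. At an unadjusted p under 0.05, 1 enzyme passed with low-dose FGF9 (Sulf1, lower), beside 4.31% of all genes, and none passed with high-dose FGF9, beside 12.0%, or with FGF2, beside 5.20%.

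**Figure D1:**
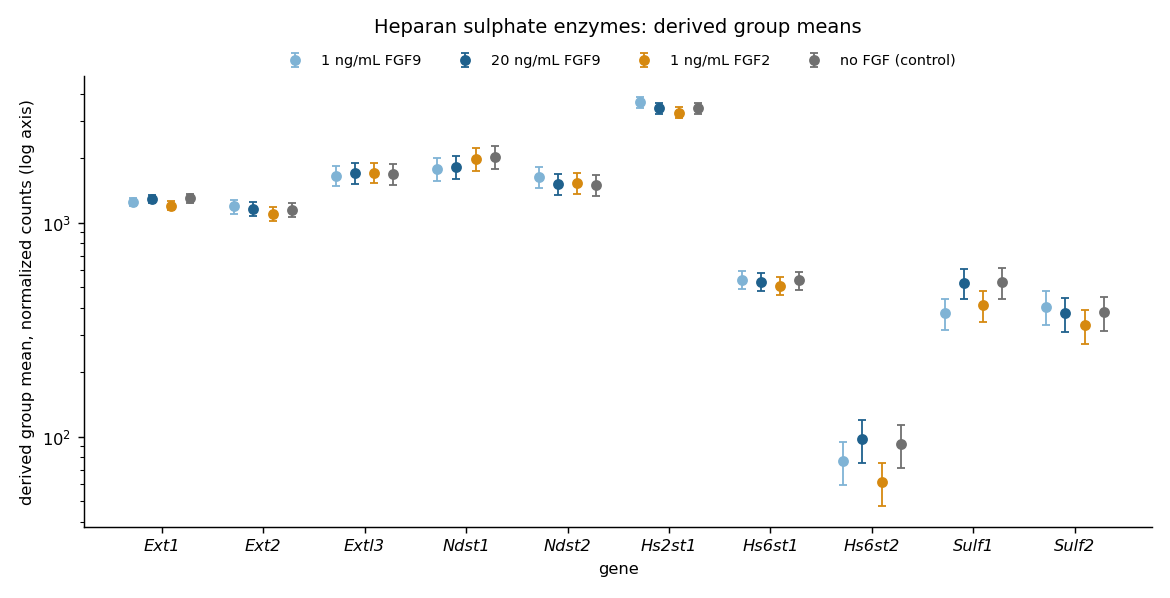
Derived group mean of each enzyme in normalized counts (log axis) for low-dose FGF9, high-dose FGF9, FGF2 and the control without FGF. Points are derived group means, and bars are the mean times the CV, a spread implied by the standard errors that leaves out counting noise. The counts are not set per length, so heights are not levels compared between genes, and the groups of one gene differed by at most 1.59-fold.

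Ext1 and Ext2 encode the 2 subunits of the copolymerase that adds glucuronic acid and N-acetylglucosamine in turn, and Extl3 encodes the transferase that starts the chain on its linker. Ext1 (chromosome 15, 53064038 to 53346159, minus strand, GRCm38) had derived means of 1252 normalized counts with low-dose FGF9, 1292 with high-dose FGF9, 1201 with FGF2 and 1301 in controls. It had the lowest CV of the 10, 4.58%, below the median of 7.63% for genes of like mean. Its fold with high-dose FGF9 was 0.993 (95% interval 0.911 to 1.08), the narrowest of the 10 intervals in that comparison. With FGF2 it stood at 0.923 (0.847 to 1.01), and the unadjusted p from the authors' DESeq2 fit was 0.0674.

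Ext2 (chromosome 2, 93661028 to 93822568, minus strand) had derived means of 1191, 1160 and 1101 normalized counts with low-dose FGF9, high-dose FGF9 and FGF2, and 1146 in controls. All 3 folds against control lay close to 1, at 1.04 (0.911 to 1.19), 1.01 (0.889 to 1.15) and 0.961 (0.843 to 1.09) in the same order of treatments. Their products work as one complex, and the ratio of Ext1 to Ext2 read counts was 1.05 with low-dose FGF9, 1.11 with high-dose FGF9, 1.09 with FGF2 and 1.13 in controls. Extl3 (chromosome 14, 65052060 to 65149855, minus strand) was the flattest across groups, with derived means of 1659, 1706, 1711 and, in controls, 1691 normalized counts, a ratio of 1.03 between its highest and lowest group. Its CV of 10.9% was nevertheless above the 7.20% of genes of like mean, and its fold with high-dose FGF9 was 1.01 (0.843 to 1.21).

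Ndst1 and Ndst2 encode the enzymes that remove acetyl groups from glucosamine and put sulphate in their place, the step on which later sulphation depends. Ndst1 (chromosome 18, 60684494 to 60748650, minus strand) had 1779 normalized counts with low-dose FGF9, 1817 with high-dose FGF9, 1992 with FGF2 and 2034 in controls. Its means in both FGF9 groups were below those of the FGF2 group and the control, with folds against control of 0.875 (0.717 to 1.07) and 0.893 (0.733 to 1.09) at the low and the high dose. Neither passed, with unadjusted p of 0.186 and 0.264 in the authors' DESeq2 fit. A difference of about 1.22-fold would have been needed to reach an unadjusted p of 0.05 for this gene, whose CV of 12.2% exceeded that of 92.1% of genes of like mean.

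Ndst2 (chromosome 14, 20723730 to 20734562, minus strand), the paralogue that in mouse mast cells makes heparin, had 1641, 1510 and 1537 normalized counts in the low-dose FGF9, high-dose FGF9 and FGF2 groups, and 1499 in controls. Its largest fold against control was 1.09 (0.908 to 1.32), with low-dose FGF9. The ratio of Ndst1 to Ndst2 read counts was 1.08 with low-dose FGF9, 1.20 with high-dose FGF9, 1.30 with FGF2 and 1.36 in controls, values for which no test was made. The other paralogues were scarce, Ndst4 with an overall mean of 32.0 normalized counts and Ndst3 with 5.24, under the filter.

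**Figure D2:**
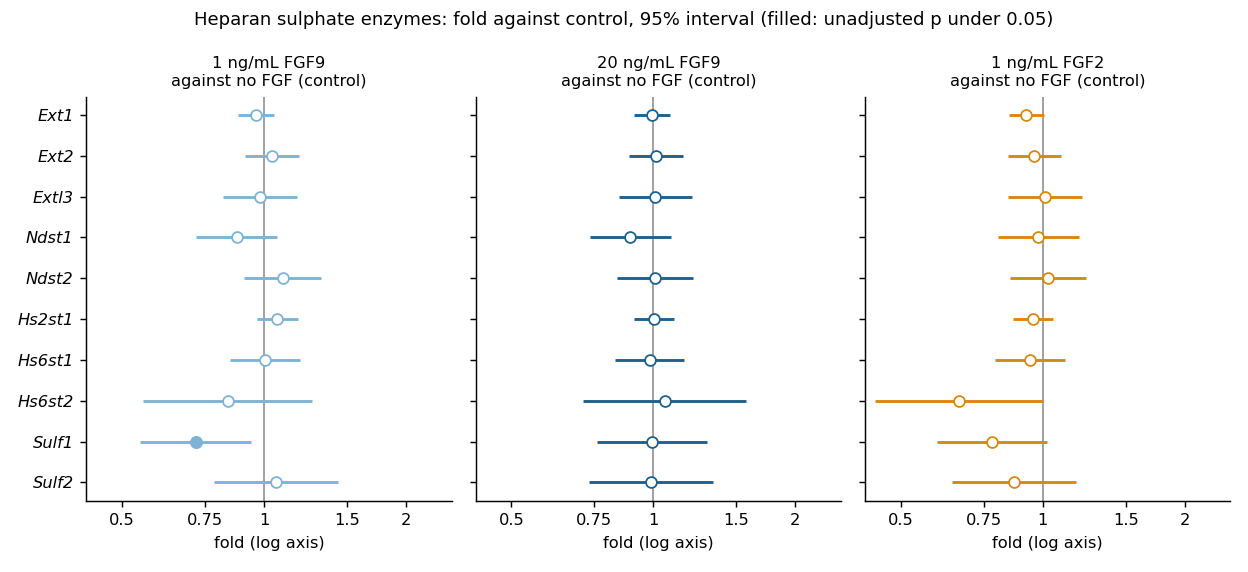
Fold of each enzyme against the control without FGF (log axis) with low-dose FGF9 (left), high-dose FGF9 (middle) and FGF2 (right). Points are folds, lines are 95% intervals and filled points have an unadjusted p under 0.05. With high-dose FGF9 every interval crosses 1, and Sulf1 with low-dose FGF9, at 0.716, is the one filled point.

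Hs2st1 encodes the single 2-O-sulphotransferase, which sulphates uronic acids, and Hs6st1 and Hs6st2 encode 6-O-sulphotransferases of glucosamine. Hs2st1 (chromosome 3, 144429706 to 144570181, minus strand) had 3650, 3432 and 3265 normalized counts in the low-dose FGF9, high-dose FGF9 and FGF2 groups, and 3420 in controls. It was also measured precisely, with a CV of 5.90%. Its fold with high-dose FGF9 was 1.00 (0.910 to 1.11), with low-dose FGF9 1.07 (0.967 to 1.18) and with FGF2 0.954 (0.865 to 1.05).

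Hs6st1 (chromosome 1, 36068400 to 36106446, plus strand) had derived means of 541, 529 and 506 normalized counts in the low-dose FGF9, high-dose FGF9 and FGF2 groups, and 539 in controls, a ratio of 1.07 between the highest and the lowest. Its folds against control were 1.00 (0.846 to 1.19), 0.982 (0.830 to 1.16) and 0.939 (0.793 to 1.11). Hs6st2 (chromosome X, 51387212 to 51681856, minus strand) had the widest intervals of the 10. It had 77.0 normalized counts with low-dose FGF9, 97.2 with high-dose FGF9, 61.2 with FGF2 and 92.0 in controls, with a CV of 22.7%, close to the 20.6% of genes of like mean. Its fold with FGF2 was 0.665 (0.442 to 1.00), the lowest of the 30 folds against control, with an unadjusted p of 0.0508 and an adjusted p of 0.963. With high-dose FGF9 the fold was 1.06 with an interval of 0.710 to 1.57. A fold of about 1.49 would have been needed in this gene to reach an unadjusted p of 0.05 there. Hs6st3, the remaining 6-O-sulphotransferase, had a mean of 1.13 normalized counts and was not tested.

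Sulf1 and Sulf2 encode the 2 sulphatases that trim 6-O-sulphate from finished chains. Sulf1 (chromosome 1, 12692277 to 12861192, plus strand) had a wider range than all others but Hs6st2 across groups. Its derived means were 377 normalized counts with low-dose FGF9, 523 with high-dose FGF9, 411 with FGF2 and 526 in controls. The low-dose FGF9 and the FGF2 group lay together below the high-dose FGF9 group and the control. With low-dose FGF9 the fold was 0.716 (0.546 to 0.940), with an unadjusted p of 0.0160 and an adjusted p of 0.866 (the authors' DESeq2 p-value, Benjamini-Hochberg over all genes tested). With FGF2 it was 0.780 (0.596 to 1.02), and with high-dose FGF9 0.994 (0.760 to 1.30). The 3 comparisons share their control libraries.

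Sulf2 (chromosome 2, 166073089 to 166155663, minus strand) was ordered differently, with 405, 377 and 332 normalized counts in the low-dose FGF9, high-dose FGF9 and FGF2 groups, and 382 in controls. Its folds against control were 1.06 (0.784 to 1.43), 0.988 (0.731 to 1.34) and 0.870 (0.643 to 1.18). The ratio of Sulf1 to Sulf2 read counts was 0.932 with low-dose FGF9, 1.39 with high-dose FGF9, 1.24 with FGF2 and 1.38 in controls. Both sulphatases had higher CVs than the median of genes of like mean, 16.2% for Sulf1 and 18.1% for Sulf2 against 10.9% and 11.3%. Folds of about 1.31 for Sulf1 and 1.35 for Sulf2 would have been needed to reach an unadjusted p of 0.05.

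As a set the 10 enzymes had a smaller median absolute log2 fold change than all genes tested with high-dose FGF9, 0.01 against 0.13, and 8 of the 10 had a log2 fold change within 0.03 of 0. Of the 12596 genes with a mean at least that of Hs6st2, 17.8% were as close to 0. The standard errors of the 10 log2 fold changes ran from 0.063 to 0.293, all larger than 0.03. Estimates this close to 0 therefore do not show that the enzymes were held constant. With low-dose FGF9 the median absolute log2 fold change was 0.09 for the enzymes and 0.10 for all genes, and with FGF2 it was 0.08 and 0.10. Over the 12596 genes with a mean at least that of Hs6st2 the median was lower, 0.07 with low-dose FGF9, 0.09 with high-dose FGF9 and 0.07 with FGF2, so that the enzymes lay below it with high-dose FGF9 and slightly above it with low-dose FGF9 and FGF2. With FGF2, 8 of the 10 enzymes lay below control and 2 above, while 50.1% of all genes tested lay above. The median log2 fold change was -0.08 for the enzymes, beside 0.00 over all genes tested, and none of the 10 had an unadjusted p under 0.05. With either dose of FGF9, 5 lay above and 5 below. Summed over the 10 genes, the derived means came to 12572 normalized counts with low-dose FGF9, 12445 with high-dose FGF9, 12116 with FGF2 and 12631 in controls. The 10 genes are not independent replicates, and no test was made of the set.

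The treatments were then compared with each other, since a difference between 2 folds against control needs its own test. Between high-dose and low-dose FGF9, 2.60% of all genes tested passed the adjusted threshold and none of the 10 enzymes did. Sulf1 was 1.39-fold higher at the high dose (1.06 to 1.82), with derived means of 523 and 377 normalized counts, an unadjusted p of 0.0176 and an adjusted p of 0.251 by a Wald test rebuilt from the DESeq2 standard errors. It was the only enzyme with an unadjusted p under 0.05 there, beside 11.8% of all genes, and its adjusted p was the smallest of the 60 tests of these enzymes. Hs6st2 had 97.2 normalized counts at the high and 77.0 at the low dose, with an interval of 0.844 to 1.89 around a fold of 1.26. The other 8 folds between doses lay between 0.920 (Ndst2) and 1.03 (Ext1).

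Between high-dose FGF9 and FGF2, 1.17% of all genes passed and none of the enzymes did. Hs6st2 was 1.59-fold higher with high-dose FGF9 (1.06 to 2.39), with 97.2 and 61.2 normalized counts, an unadjusted p of 0.0261 and an adjusted p of 0.464 by the rebuilt DESeq2 Wald test. It was the one enzyme below an unadjusted p of 0.05, beside 8.31% of all genes. Sulf1 stood at 1.27 (0.972 to 1.67) and Ext1 at 1.08 (0.987 to 1.17), and the other 7 folds lay between 0.913 (Ndst1) and 1.14 (Sulf2). At the matched dose of 1 ng/mL, with FGF9 set against FGF2, 0.429% of all genes passed and again none of the enzymes. Hs2st1 was 1.12-fold higher with FGF9 (1.01 to 1.23), with 3650 and 3265 normalized counts, an unadjusted p of 0.0261 and an adjusted p of 0.549 by the same test, beside 7.14% of all genes with an unadjusted p under 0.05. Ndst1 had the lowest fold in this comparison, 0.893 (0.733 to 1.09), and Hs6st2 the highest, 1.26 (0.834 to 1.90). The other 7 lay between 0.918 (Sulf1) and 1.22 (Sulf2). Intervals of this width do not show that the 2 FGFs act alike on these genes. For 4 of the 10 they lay within 1.25-fold and for 8 within 1.5-fold, beside 35.7% and 59.5% of all genes tested.

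**Figure D3:**
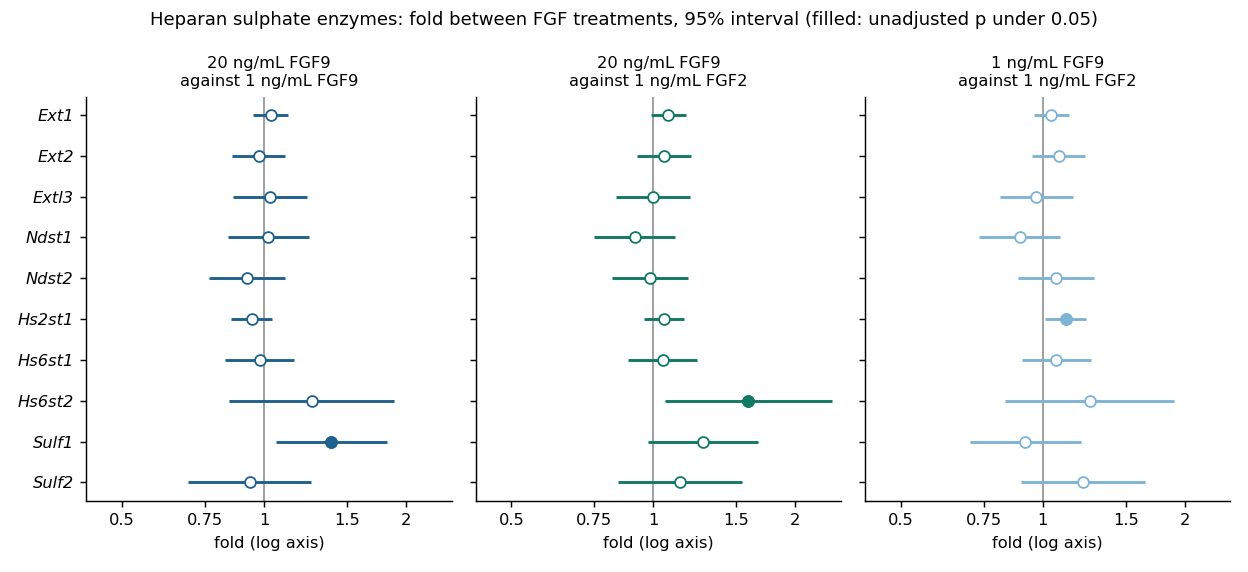
Fold of each enzyme (log axis) for high-dose FGF9 against low-dose FGF9 (left), high-dose FGF9 against FGF2 (middle) and low-dose FGF9 against FGF2 (right). Points are folds from the rebuilt contrasts, lines are 95% intervals and filled points have an unadjusted p under 0.05. One point is filled in each panel, Sulf1 at 1.39, Hs6st2 at 1.59 and Hs2st1 at 1.12, and none passed the adjusted threshold.

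To compare levels between genes, read counts were set per length, as the mean normalized count over all libraries for each kilobase of the longest protein-coding transcript. Hs2st1 led with 557 per kilobase, followed by Ext2 with 400, Ndst2 with 396, Ndst1 with 294, Extl3 with 281, Ext1 with 165, Hs6st1 with 142, Sulf1 with 82.0, Sulf2 with 81.6 and Hs6st2 with 18.8. Among tested protein-coding genes, 71.7% lay below Hs2st1 on this scale and 15.3% below Hs6st2. Neighbours such as Ext2 and Ndst2, or Sulf1 and Sulf2, cannot be put in order, because the choice of length moves them. With all exons of the gene merged, an alternative chosen after seeing the data, Ext2 had 157 per kilobase and had rank 5, Ndst2 had 340 and had rank 2, and Sulf2 had 63.7 against 40.7 for Sulf1. Hs2st1 and Hs6st2 kept the first and the last place. Of the 6-O-sulphotransferases, Hs6st1 thus had the higher level per kilobase, and the ratio of its read counts to those of Hs6st2 was 7.02 with low-dose FGF9, 5.44 with high-dose FGF9, 8.27 with FGF2 and 5.86 in controls.

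In the annotation, 4 of the 10 genes overlap a gene on the opposite strand. Exons are shared only by Hs6st1 with the antisense transcript Gm37335, over 447 bases, and by Sulf2 with Ncoa3, over 154 bases. The library kit marks the strand, and whether the counting used it is not stated in the sources used here.

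The rest of the pathway was followed through a list of 44 other genes, of which 43 were in the table and 37 passed the filter. They comprise the remaining polymerases and sulphotransferases, the linker enzymes, the supply of sulphate donor and sugar nucleotides, heparanases and the lysosomal enzymes that break the chain down. None of the 37 passed the adjusted threshold against control with any treatment. At an unadjusted p under 0.05, 2, 2 and 5 of them passed with low-dose FGF9, high-dose FGF9 and FGF2. The shares of all genes tested were 4.31%, 12.0% and 5.20%. Between high-dose and low-dose FGF9, 1 of the 37 passed the adjusted threshold, higher at the high dose, beside 2.60% of all genes. None passed between either FGF9 dose and FGF2. At an unadjusted p under 0.05, 4 of the 37 passed between the FGF9 doses, beside 11.8% of all genes. Against FGF2 the count was 1 with high-dose FGF9, beside 8.31%, and 6 with low-dose FGF9, beside 7.14%. Xylt1, a xylosyltransferase that starts the linker, had 408 normalized counts with high-dose FGF9 and 499 in controls, a fold of 0.819 (0.684 to 0.981) with an adjusted p of 0.331. Pxylp1, which removes a phosphate from the linker xylose, had 110 normalized counts with FGF2 and 240 in controls, a fold of 0.456 (0.291 to 0.715) with an adjusted p of 0.148.

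Hs3st3b1, a 3-O-sulphotransferase, was abundant, with 2746 normalized counts under FGF2 and 2390 in controls, a fold of 1.15 (1.05 to 1.25) and an adjusted p of 0.238. Arsg, a lysosomal sulphatase of 3-O-sulphated glucosamine, had 92.2, 102 and 97.4 normalized counts with low-dose FGF9, high-dose FGF9 and FGF2, and 145 in controls. Its adjusted p values were 0.455, 0.240 and 0.490 in the same order. With high-dose FGF9 the 8 lysosomal genes had a median log2 fold change of 0.12 against control, 7 of them above it, and none passed the test (1 at an unadjusted p under 0.05, Arsg).

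Among the proteins that carry the chains, 9 core proteins were tested. With high-dose FGF9 against control 2 of them passed, both lower, beside 2.75% of all genes tested. Of the 9, 4 lay above control, and 1 was higher at an unadjusted p under 0.05. The median log2 fold change was -0.01, and the summed level was 31160 normalized counts with high-dose FGF9 and 29175 in controls. None passed with low-dose FGF9 (0 at an unadjusted p under 0.05) or FGF2 (2 at an unadjusted p under 0.05). Gpc3, a glypican held to the membrane by a lipid anchor, had 747 normalized counts with high-dose FGF9 and 1040 in controls, a fold of 0.718 (0.644 to 0.802) with an adjusted p of 1.5e-06. Sdc1, a syndecan that crosses the membrane, had 1407 and 1748, a fold of 0.805 (0.732 to 0.885) with an adjusted p of 0.000977. Gpc3 was also lower with high-dose FGF9 than with low-dose FGF9 (0.715, adjusted p 1.5e-06) and than with FGF2 (0.804, adjusted p 0.015), and Sdc1 than with low-dose FGF9 (0.843, adjusted p 0.0252). With high-dose FGF9 a fold of 1.22 or less would have reached an unadjusted p of 0.05 in 7 of the 10 enzymes. The adjusted threshold that Gpc3 and Sdc1 passed is stricter, and the fold that it would need in the enzymes was not computed.

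**Figure D4:**
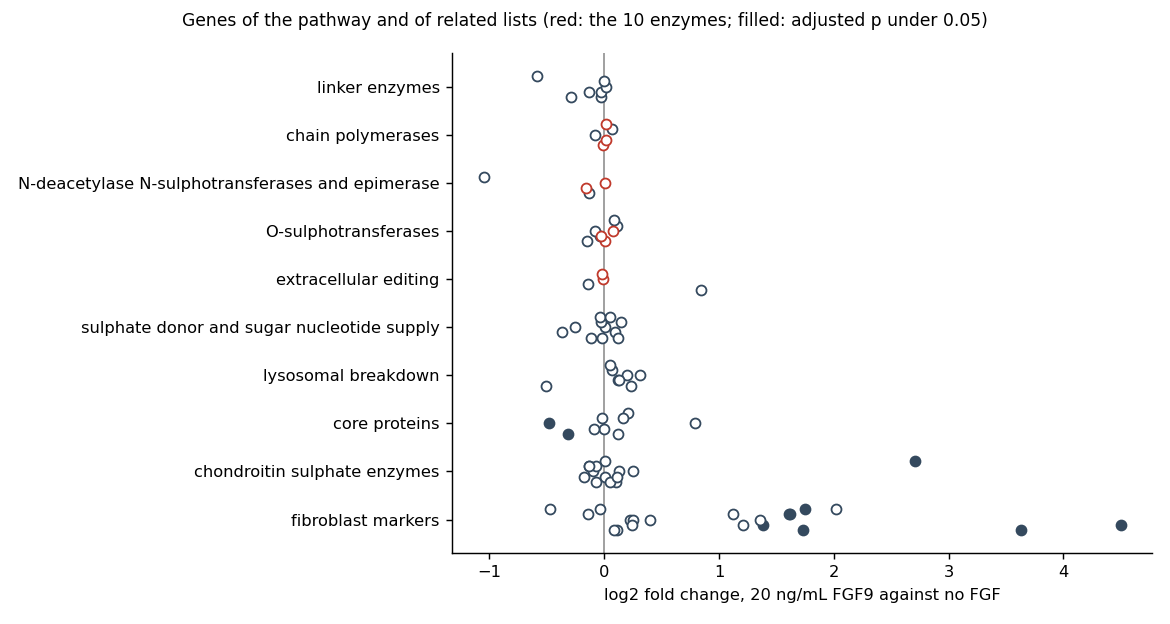
Log2 fold change with high-dose FGF9 against the control without FGF for every tested gene of the heparan sulphate lists, the core proteins, the chondroitin sulphate enzymes and the fibroblast markers. Each point is 1 gene, the 10 enzymes are red and filled points passed an adjusted p of 0.05. The enzymes lie around 0, and the filled points are 2 core proteins below 0, Csgalnact1 and 6 fibroblast markers above 0.

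Chondroitin sulphate is built on the same linker, and its enzymes were counted beside those of heparan sulphate. Of 14 tested, 1 passed with high-dose FGF9 against control and none with low-dose FGF9 or FGF2 (0 and 2 at an unadjusted p under 0.05). Csgalnact1, which starts the chondroitin chain, had 47.5 normalized counts with high-dose FGF9 and 7.26 in controls, a fold of 6.54 with a wide interval of 2.29 to 18.7 and an adjusted p of 0.0224. Against a null estimated from the Wald statistics of all genes tested, its adjusted p was 0.0907 and the call was lost.

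Of the 20 fibroblast markers tested, 6 passed with high-dose FGF9 against control, all 6 higher, and 14 did not, with a median log2 fold change of 1.17 over the 20. Cav1, a caveola protein, had 365 normalized counts with high-dose FGF9 and 16.1 in controls, and S100a4, a calcium-binding protein, had 454 and 36.6. Vim, an intermediate filament protein, had 2168 and 645, and Bgn, a matrix proteoglycan, had 792 and 238. Other fibroblast genes did not pass, such as Fn1 with 11102 and 10475 and Col1a1 with 2302 and 1966 normalized counts. Of the markers not tested, Lum was at 0.19 with high-dose FGF9 and 0.11 in controls, and Acta2, Tagln and Fap were also below the filter. With low-dose FGF9, 1 of the 20 passed (Cav1, higher), and with FGF2 none did (3 at an unadjusted p under 0.05). Of 12 markers of undifferentiated spermatogonia 1 passed with high-dose FGF9 (Id4, an inhibitor of DNA binding, with 766 normalized counts and 542 in controls) and none with low-dose FGF9 or FGF2 (0 and 5 at an unadjusted p under 0.05). Of the Sertoli, Leydig and myoid cell markers 4 were tested, and none passed with any treatment against control, adjusted or unadjusted. The part that feeder cells had in the levels of the 10 enzymes, Gpc3, Sdc1 or Csgalnact1 was not tested.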

How the data were processed

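Cultured THY-1+ germ cells of 4 treatments were sequenced as stranded mRNA libraries. The authors processed the reads with STAR and Salmon on GRCm38 and compared treatments with DESeq2 (versions and model formula: not given in the sources used here). No value per library is held in the deposited table (0 such columns), so the depth per library is unknown. It gives the mean normalized count (a signal) over all libraries and, for each treatment against control, the authors' log2 fold change and standard error (log2), Wald statistic (a score), p-value and adjusted p-value. These are the authors' own comparisons, used because nothing else was deposited in this table.

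From them were computed group means (equal group sizes), the dispersion implied by the standard errors with 3 libraries per group, direct contrasts between treatments, and Benjamini-Hochberg adjustment over the 17755 genes whose mean reached 10 (in direct contrasts, the 17726 of these whose derived mean reached 1 in all groups). Genes with an adjusted p under 0.05 were called. Intervals are 95% normal intervals. Genes of like mean have 0.8 to 1.25 times a gene's mean over all libraries. The p-values measure the spread between libraries of these cultures, and the sources do not say whether the cultures were set up separately. It is also not known whether the culture number was a covariate in the authors' fit. If it was, the p-values and CVs measure the spread left after it. The code of the reconstruction was run on data simulated with the same formulas. Such a run cannot test the assumed 3 libraries per group or the model of the authors' fit. Positions and lengths are from GENCODE M21. Python 3.11.15, numpy 2.4.6, scipy 1.17.1, pandas 2.3.3 and matplotlib 3.10.9 were used.

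All 10 enzymes were tested in every comparison and named against control, and between treatments those nearest to an end of the range of p-values or folds were named and the rest given as a range. Of 12 gene lists, counts were taken, and up to 4 genes per list and comparison that passed were named, smallest p first, or else up to 2 with the smallest p and a mean of at least 50. Dazl, Ddx4, Ndst3, Ndst4, Hs6st3, Fn1, Col1a1, Lum, Acta2, Tagln and Fap were named outside this rule. One gene that the rule would name is not reported here. The enzymes and lists were chosen with earlier results of these data known. Alternatives in all comparisons were no filter or a minimum mean of 50, and recentred fold changes. Only against control, the deposited adjusted p-values and an estimated null of the Wald statistic were used. Only in direct contrasts, 2 or 4 libraries per group were used. Levels were also set per merged exon length.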

Additional observations from a re-analysis of the deposited data

How the results depend on the processing

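None of the 10 enzymes passed the adjusted threshold in the 6 comparisons under any of the alternatives run, 300 values in all. The smallest adjusted p was 0.209 by the rebuilt DESeq2 Wald test (Sulf1, high-dose against low-dose FGF9, minimum mean of 50). The deposited adjusted p-values and the estimated null were run only in the 3 comparisons against control, not between treatments. The one reversal was Extl3 with high-dose FGF9 against FGF2, whose log2 fold change of -0.00394 became 0.000462 on recentring. Recentring moved log2 fold changes by less than 0.006. Counts over all genes were less stable. With low-dose FGF9 the 14 called genes became 34 without a filter, 35 with the deposited adjusted p-values and 76 with the estimated null. With high-dose FGF9 the 488 became 273 with the estimated null, and with FGF2 the 26 became 43 with the deposited values and 99 with the estimated null. With FGF2 the share of higher genes among those called was 76.9%, against 48.6% without a filter and 46.5% with the deposited values. With the estimated null Csgalnact1 lost its call (adjusted p 0.0907), and at a minimum mean of 50 it was not tested. The other calls of named genes in the lists remained under the alternatives run. By merged exon length the ranks became 5 for Ext2, 3 for Extl3, 2 for Ndst2, 9 for Sulf1 and 8 for Sulf2. No paired analysis was possible because the table holds no value per library, and leaving out each replicate was not run for the same reason.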
